A study of Mus musculus with 9 samples.

Results

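Mucins are long, heavily O-glycosylated proteins that keep the eye surface wet and shield it from particles and microbes. The 6 examined here fall into 2 classes. Muc5ac and Muc5b are gel-forming mucins, which goblet cells and other secretory cells store in granules and release into the tear film. Muc1, Muc4, Muc16 and Muc20 are membrane mucins, which stay anchored in the surface of epithelial cells and form their glycocalyx. In allergic eye disease goblet cells release their mucin, and the conjunctiva is the tissue that holds them. The 6 genes were taken by symbol from a table of 20603 genes. All 6 were listed in it and all 6 had enough reads to be tested, among 15613 genes tested in all.

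Messenger RNA was sequenced from mouse conjunctiva in 9 libraries, each made from the pooled tissue of 3 mice on a C57BL/6J background. The 3 groups of 3 pools were challenged Vegfr3iLECko, challenged Ctrl and unchallenged Ctrl. Challenged Vegfr3iLECko mice carried floxed Vegfr3 alleles together with the tamoxifen-inducible Cre Prox1CreERT2 (labelled Vegfr3 fl/fl;prox1CreERT2). Challenged Ctrl and unchallenged Ctrl mice were Vegfr3 fl/fl littermates without that Cre. Every group, unchallenged Ctrl included, received 5 tamoxifen injections of 75 mg/kg at week 5. At week 6 every group was immunized to ovalbumin (OVA), of which 250 µg was injected together with 5 mg of aluminum hydroxide and 0.3 µg of pertussis toxin (PTX). The challenge began 14 days later and was an eye drop of 250 µg of OVA in 5 µL, given daily for 28 days to the right eye, with saline in the left. The labels do not give the eye or the animals behind the unchallenged pools, so it is unknown whether they share mice with the challenged pools. Prox1 drives the Cre in lymphatic endothelium and in other cells that express Prox1, so the deletion is not aimed at the epithelium that makes mucins. A p-value here measures the spread between pools, not between single mice.

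Libraries held 16490050 to 24746836 counts in all, so that 3 counts, the floor taken for a count of 0, came to 0.115 to 0.186 CPM (counts scaled to library size and given on a per-million scale). Flt4, the symbol of Vegfr3, averaged 7.78 CPM in challenged Vegfr3iLECko, 17.9 CPM in challenged Ctrl and 19.6 CPM in unchallenged Ctrl pools. It was at 13.0, 5.07 and 5.32 CPM in challenged Vegfr3iLECko pools 1 to 3, against 13.4 to 26.8 CPM in the control pools. Challenged Vegfr3iLECko 1 thus lay barely below the lowest control pool. Without regard to direction, 12.9% of all genes did not overlap between challenged Vegfr3iLECko and challenged Ctrl. The share was 6.59% between challenged Vegfr3iLECko and unchallenged Ctrl. The difference of Flt4 from challenged Ctrl missed the threshold over all genes (log2 fold change -1.20, SE 0.40, edgeR adjusted p = 0.468). Of the 12 conjunctival epithelium markers, all 12 were listed and none was at 0 in any library, and Krt4 alone held 2404 to 5080 CPM. Krt12, the keratin of corneal epithelium, was present at 0.852 to 15.5 CPM.

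The 6 mucins differed widely in level, and membrane mucins made up most of the mucin messenger RNA. Together the 6 took 0.213% to 0.604% of all counts in a library, and Muc4 alone took 0.146% to 0.410%. Levels of different genes were compared per kilobase of exon, as CPM/kb. On that scale Muc4, a membrane mucin with EGF-like domains, averaged 220 ± 87.8 CPM/kb in challenged Vegfr3iLECko, 307 ± 55.3 in challenged Ctrl and 232 ± 48.2 in unchallenged Ctrl pools (SD, n = 3 each, as throughout). Muc1, a membrane mucin of most simple epithelia whose tail signals inside the cell, averaged 164 ± 33.9, 164 ± 59.9 and 157 ± 20.6 CPM/kb in the same groups. Muc20, a short membrane mucin reported to bind the receptor Met in human cells, averaged 72.9 ± 17.2, 88.5 ± 13.8 and 67.8 ± 2.91 CPM/kb. These 3 genes ranked ahead of both gel-forming mucins in every library.

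Muc5ac, the main gel-forming mucin of conjunctival goblet cells, averaged 33.5 ± 38.2 CPM/kb in challenged Vegfr3iLECko, 40.4 ± 39.5 in challenged Ctrl and 23.3 ± 22.6 in unchallenged Ctrl pools. Muc5b, a gel-forming mucin best known from the airways, averaged 2.94 ± 2.28, 2.64 ± 2.73 and 1.82 ± 1.18 CPM/kb in the same groups. Muc16, a very large membrane mucin of the apical glycocalyx, was last with 0.170 ± 0.115, 0.173 ± 0.127 and 0.191 ± 0.185 CPM/kb. The order Muc4, Muc1, Muc20, Muc5ac, Muc5b, Muc16 held in 9 of 9 libraries for each pair of neighbours. Over the 9 libraries the ranges of neighbours overlapped all the same, except those of Muc5b and Muc16. The summed gel-forming level per kilobase was 14.6%, 2.35% and 4.72% of the summed membrane level in challenged Vegfr3iLECko pools 1 to 3. That ratio was 6.96%, 13.1% and 1.01% in challenged Ctrl pools 1 to 3, and 10.7%, 1.71% and 3.57% in unchallenged Ctrl pools 1 to 3. It differed by more between pools of a group than between group means, which were 7.23 ± 6.50%, 7.04 ± 6.06% and 5.32 ± 4.74%.

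The level of a mucin read from short fragments rests in part on its repeats, since a read that lies inside identical repeats has no unique place within the gene. In the coding sequence of mouse gene models (GENCODE vM21, on GRCm38, another build than the mm39 of the counts), 24.1% of the 50-base words of Muc5ac on chromosome 7 occurred more than once. The share was 22.8% for its neighbour Muc5b, 11% for Muc4, 2.06% for Muc16, 1.52% for Muc1 and 0% for Muc20. The contrast is plain in the tandem repeats themselves. For Muc5ac and Muc1 the 4 adjacent copies with the fewest differences from the first were picked, at a set unit length, so they need not be typical. In transcript Muc5ac-202 a unit of 48 bases follows itself nearly unaltered there, from coding base 5698 to 5889. Capitals mark bases that differ from the first copy.
Muc5ac copy 1: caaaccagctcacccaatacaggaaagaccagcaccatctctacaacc
Muc5ac copy 2: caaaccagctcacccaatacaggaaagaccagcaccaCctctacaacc
Muc5ac copy 3: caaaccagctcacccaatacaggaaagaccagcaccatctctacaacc
Muc5ac copy 4: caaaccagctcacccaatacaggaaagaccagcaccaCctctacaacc
Copy 3 equals copy 1, and copies 2 and 4 each differ from it at 1 base. In transcript Muc1-201 on chromosome 3 the unit of 60 bases has drifted, shown in the same way from coding base 796 to 1035.
Muc1 copy 1: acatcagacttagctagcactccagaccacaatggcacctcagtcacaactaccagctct
Muc1 copy 2: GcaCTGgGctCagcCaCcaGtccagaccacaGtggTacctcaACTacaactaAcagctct
Muc1 copy 3: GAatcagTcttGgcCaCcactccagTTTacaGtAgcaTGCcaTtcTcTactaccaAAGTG
Muc1 copy 4: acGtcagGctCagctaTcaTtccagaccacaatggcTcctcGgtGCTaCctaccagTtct
These copies of Muc1 differ from the first at 15, 22 and 12 bases, so most reads across them have a unique place. How the authors' counting treated reads from repeats is not given in the sources used here.

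Muc5ac varied by 19.0-fold over the 9 libraries, far more than its group means differed. It was at 834, 112 and 134 CPM in challenged Vegfr3iLECko pools 1 to 3, against 367, 889 and 46.8 CPM in challenged Ctrl pools 1 to 3 and 529, 76.5 and 146 CPM in unchallenged Ctrl pools 1 to 3. Each group held high and low pools, so all 3 groups overlapped. The widest step in the ordered values was 2.52-fold and parted 4 high libraries from 5 low ones. The high libraries were challenged Vegfr3iLECko 1, challenged Ctrl 1 and 2, and unchallenged Ctrl 1.

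Muc5b was at 82.4, 17.9 and 31.4 CPM in challenged Vegfr3iLECko pools 1 to 3, against 22.6, 86.0 and 9.75 CPM in challenged Ctrl and 44.5, 9.23 and 27.8 CPM in unchallenged Ctrl pools 1 to 3. Its highest libraries were again challenged Ctrl 2 and challenged Vegfr3iLECko 1, and the groups overlapped. Muc16 was at 7.98, 2.54 and 2.92 CPM in challenged Vegfr3iLECko pools 1 to 3, against 5.20, 7.53 and 0.913 CPM in challenged Ctrl and 10.6, 1.57 and 2.94 CPM in unchallenged Ctrl pools 1 to 3. The same 4 libraries that were high in Muc5ac were the 4 highest in Muc16, which rested on 16 to 205 reads a library.

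**Figure D1:**
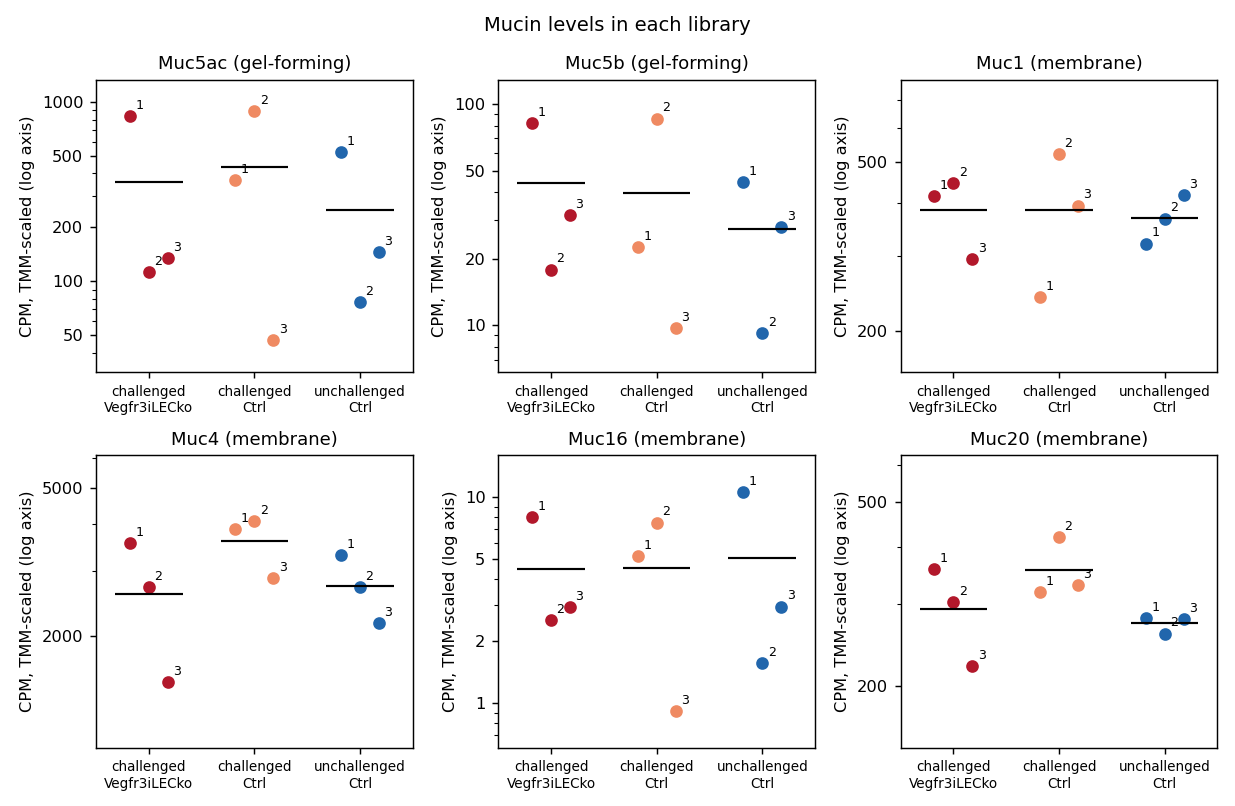
Level of each mucin in every library, in TMM-scaled CPM on log axes, with a point for each pool (numbered by replicate) and a line at the group mean (n = 3 pools a group). Muc5ac spans 46.8 to 889 CPM with high and low pools in each group, whereas Muc20 stays between 220 and 420 CPM.

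The other membrane mucins were far steadier. Muc1 was at 415, 446 and 295 CPM in challenged Vegfr3iLECko pools 1 to 3, against 240, 521 and 394 CPM in challenged Ctrl and 321, 368 and 418 CPM in unchallenged Ctrl pools 1 to 3. Its lowest and highest values both lay in challenged Ctrl, 2.17-fold apart. Muc4 was at 3561, 2708 and 1507 CPM in challenged Vegfr3iLECko pools 1 to 3, against 3881, 4071 and 2863 CPM in challenged Ctrl and 3301, 2705 and 2167 CPM in unchallenged Ctrl pools 1 to 3. The lowest library by a step of 1.44-fold was challenged Vegfr3iLECko 3. Muc20 was at 358, 303 and 220 CPM in challenged Vegfr3iLECko pools 1 to 3, against 319, 420 and 330 CPM in challenged Ctrl and 281, 260 and 279 CPM in unchallenged Ctrl pools 1 to 3. All 3 challenged Ctrl pools lay above all 3 unchallenged Ctrl pools, and the challenged Vegfr3iLECko pools overlapped both.

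Set against all genes, the spread of Muc5ac stood near the top. Its SD between pools of a group was 1.76 on the log2 CPM scale, and 0.525% of the tested genes had a larger one. Among the 764 genes of like abundance, within 0.5 log2 units of its mean, 0% had a larger SD. Muc5b and Muc16 each had an SD of 1.30, which 2.13% and 2.15% of genes exceeded. For Muc1, Muc4 and Muc20 the SD was 0.39, 0.44 and 0.24, around the median of 0.34 over all genes. The share of genes with a larger SD was 42.7% for Muc1, 36.9% for Muc4 and 69.4% for Muc20. Among genes of like abundance the share was 0.235% of 2555 genes for Muc5b and 3.59% of 1169 for Muc16. It was 23.5% of 375 genes for Muc1, 22.7% of 22 for Muc4 and 51.9% of 501 for Muc20. By this measure the membrane mucin Muc16 lay nearer to the gel-forming mucins than to the other membrane mucins.

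**Figure D2:**
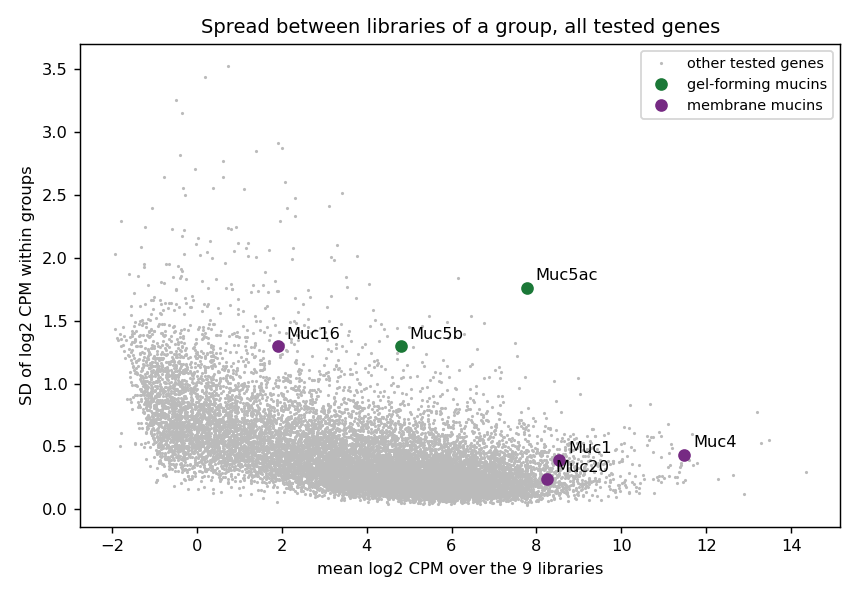
SD of log2 CPM between pools of a group (vertical) against mean log2 CPM over the 9 libraries (horizontal), with a dot for each tested gene and the 6 mucins in colour. Muc5ac sits above all genes of its abundance with an SD of 1.76, while Muc1, Muc4 and Muc20 lie at 0.24 to 0.44, among other genes of their abundance.

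Muc5ac, Muc5b and Muc16 went up and down together over the pools. All 15 pairs of members were correlated over the 9 libraries on log2 CPM, with exact two-sided permutation tests over all orderings and Benjamini-Hochberg adjustment over the 15. Muc5ac and Muc16 had a Pearson r of 0.960 (adjusted p = 0.00157, exact permutation) and a Spearman rho of 0.933 (adjusted p = 0.00984, exact permutation). Without the pools farthest from the median of Muc5ac, challenged Ctrl 2 and challenged Vegfr3iLECko 1, r was 0.985. Muc5ac and Muc5b had an r of 0.918 (adjusted p = 0.00438, exact permutation) and a rho of 0.917 (adjusted p = 0.00984, exact permutation), and r was 0.817 without the same pools. For Muc5b and Muc16 r was 0.878 (adjusted p = 0.0117, exact permutation) and rho 0.850 (adjusted p = 0.0228, exact permutation). Without unchallenged Ctrl 2 and challenged Ctrl 2 that r was 0.859. With group means taken out, r was 0.977, 0.935 and 0.899 for the 3 pairs, so the relation held within groups. These tests treat the 9 pools as independent. The labels do not settle that, and same-numbered pools of challenged Ctrl and unchallenged Ctrl deviated together over all genes (r = 0.245 to 0.488). Challenged Vegfr3iLECko 1 and 3 also deviated with their namesakes in both control groups (r = 0.318 to 0.339). Challenged Vegfr3iLECko 2 did not (r = -0.147 and -0.0889). The tests do not take this dependence into account.

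Muc5ac stayed ahead of Muc5b throughout, by 4.27 to 16.2 reads for each Muc5b read. The ratio was not fixed: it was 10.1, 6.28 and 4.27 in challenged Vegfr3iLECko pools 1 to 3, against 16.2, 10.3 and 4.80 in challenged Ctrl and 11.9, 8.29 and 5.24 in unchallenged Ctrl pools 1 to 3. In each group it was highest in the pool numbered 1. Muc5ac outnumbered Muc16 by 44.2 to 118 reads for each.

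Muc4 and Muc20 also varied together, with an r of 0.836 (adjusted p = 0.0205, exact permutation) and a rho of 0.867 (adjusted p = 0.0225, exact permutation). Without challenged Ctrl 2 and challenged Vegfr3iLECko 3, the pools farthest from the median of Muc4, r was 0.557, so its size rests in part on those pools. With group means taken out and all 9 pools kept, r was 0.807. The share of all gene pairs that reach such an r was not counted, nor was it for the pairs of Muc5ac, Muc5b and Muc16. The genes lie on opposite strands of chromosome 16 and their exons overlap by 627 bases in the gene models, which is 5.33% of the exon bases of Muc4 and 15.6% of those of Muc20. The labels do not say whether the libraries kept strand, so reads from that overlap cannot be told apart, and Muc4 had 6.84 to 12.2 reads for each Muc20 read. For the remaining 11 pairs the lowest adjusted p of Pearson's r was 0.259 (exact permutation), with r between -0.0593 and 0.597. Muc5ac and Muc1 had an r of 0.0646 (adjusted p = 0.880, exact permutation).

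**Figure D3:**
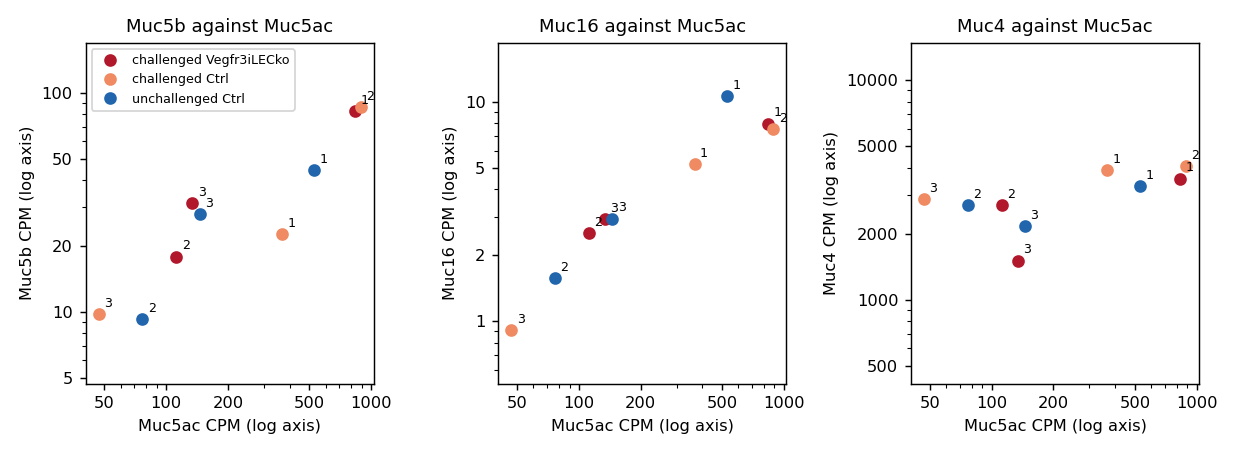
Muc5b, Muc16 and Muc4 (vertical) against Muc5ac (horizontal) in each library, in CPM on log axes, coloured by group and numbered by replicate. Muc5b and Muc16 follow Muc5ac in all 3 groups (r = 0.918 and 0.960); for Muc4 against Muc5ac r was 0.597 (adjusted p = 0.259, exact permutation).

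The promoters of the members that varied together can be set side by side where the RefSeq table (GRCm38.p6) holds them, which is for Muc1, Muc4, Muc16 and Muc20. Each window runs from 250 bases before to 50 after the gene's start, 5′ to 3′ on the gene's strand. Muc4 and Muc20 are shown as the pair on chromosome 16, and Muc16 as the membrane mucin that followed Muc5ac. Muc16 was not found to vary with Muc4 (r = 0.479, adjusted p = 0.365, exact permutation) or Muc20 (r = 0.337, adjusted p = 0.553, exact permutation). The window of Muc1, not shown, had 0 matches to CACCC and 2 to the GC box. Capitals mark matches on either strand. The letters searched were GGGCGG for the GC box and, for the core of the box that factors such as Klf4 bind, CACCC. Further motifs were the TATA box with the letters TATAAA, the AP-1 site with the letters TGANTCA, and the forkhead site with the letters TGTTTNC. No match overlaps another.
Muc4 promoter, chr16:32735636-32735935, plus strand: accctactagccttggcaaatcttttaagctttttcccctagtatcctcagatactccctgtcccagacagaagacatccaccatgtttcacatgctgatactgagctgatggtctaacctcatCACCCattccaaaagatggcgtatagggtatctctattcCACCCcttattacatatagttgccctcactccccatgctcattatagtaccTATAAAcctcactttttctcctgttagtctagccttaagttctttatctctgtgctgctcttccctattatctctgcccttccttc
Muc20 promoter, chr16:32797386-32797685, minus strand: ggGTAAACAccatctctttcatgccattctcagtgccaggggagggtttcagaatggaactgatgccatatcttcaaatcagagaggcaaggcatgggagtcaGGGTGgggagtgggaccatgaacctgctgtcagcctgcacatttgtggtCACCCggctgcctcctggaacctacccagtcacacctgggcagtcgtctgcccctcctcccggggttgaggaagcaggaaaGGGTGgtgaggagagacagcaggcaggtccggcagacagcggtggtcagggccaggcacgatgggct
Muc16 promoter, chr9:18674554-18674853, minus strand: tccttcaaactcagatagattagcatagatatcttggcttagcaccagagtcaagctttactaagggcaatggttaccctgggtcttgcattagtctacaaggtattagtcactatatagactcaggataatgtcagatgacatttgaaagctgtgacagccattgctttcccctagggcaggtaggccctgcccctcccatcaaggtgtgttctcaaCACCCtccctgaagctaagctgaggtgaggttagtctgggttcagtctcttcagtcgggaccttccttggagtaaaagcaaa
CACCC occurred in all 3 windows, at 2 places in Muc4, 3 in Muc20 and 1 in Muc16, and in 57.5% of all 32851 promoter windows. TATAAA lay 36 bases before the start of Muc4 and is found in 13.6% of windows, and the forkhead letters lay near the far end of the Muc20 window and are found in 20.5%. In none of the 3 windows was there a match to the letters of the GC box (35.7% of windows) or the AP-1 site (7.81%). A match describes letters, not a bound site.

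The first comparison, challenged Ctrl against unchallenged Ctrl, asks what daily allergen drops did to the mucins of immunized mice, and none of the 6 passed the test. The test was edgeR's quasi-likelihood test on all 9 libraries with Benjamini-Hochberg adjustment over all genes, and a gene was called at an adjusted p of 0.05. It called 0 of 6 mucins, against 0.0640% of all genes (10 of 15613), and 0 of 6 had an unadjusted p under 0.05, against 12.4% of all genes. DESeq2 and limma voom also called 0 of 6, and so did the test with replicate number as a block, which raised the count over all genes to 267. In these bulk samples, fewer cells of a type and less RNA per cell cannot be told apart.

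Among the gel-forming mucins, Muc5ac averaged 434 ± 425 CPM in challenged Ctrl and 250 ± 243 CPM in unchallenged Ctrl pools. Its log2 fold change was 0.80 (SE 1.07, 95% interval -1.60 to 3.19, adjusted p = 0.872), an interval that runs from 0.331-fold to 9.11-fold. The estimate was -0.28 without challenged Ctrl 2 and 1.97 without unchallenged Ctrl 1. Muc5b averaged 39.5 ± 40.8 CPM in challenged Ctrl and 27.2 ± 17.6 CPM in unchallenged Ctrl pools, a log2 fold change of 0.54 (SE 0.82, adjusted p = 0.891) that was -0.75 without challenged Ctrl 2. Both directions thus hinge on challenged Ctrl 2, the library with the most Muc5ac and Muc5b.

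Among the membrane mucins, Muc20 had the lowest adjusted p without the block, with 357 ± 55.4 CPM in challenged Ctrl and 273 ± 11.7 CPM in unchallenged Ctrl pools. The log2 fold change was 0.39 (SE 0.20, 95% interval -0.06 to 0.83, adjusted p = 0.498). It was the only mucin of the 6 whose challenged Ctrl pools did not overlap the unchallenged Ctrl pools, and 7.21% of all genes were likewise higher without overlap. Muc4 averaged 3605 ± 650 CPM in challenged Ctrl and 2724 ± 567 CPM in unchallenged Ctrl pools, with a log2 fold change of 0.40 (SE 0.32, 95% interval -0.31 to 1.12, adjusted p = 0.712). With the block in these groups alone the edgeR adjusted p was 0.176 for Muc4 and 0.209 for Muc20. Each was higher in challenged Ctrl in 3 of 3 same-numbered pairs. For Muc20 this follows from the lack of overlap and would hold under any pairing. The pairing was taken from the data, and the share of all genes with 3 of 3 was not counted. Muc1 was at 0.06 (SE 0.28, 95% interval -0.55 to 0.68), an interval of 0.682-fold to 1.60-fold. It was -0.03 without unchallenged Ctrl 1 and -0.23 without challenged Ctrl 2. Muc16 was at -0.14 (SE 0.83, adjusted p = 0.983). Without unchallenged Ctrl 1 it was at 1.02 and without challenged Ctrl 3 at 0.34. The median log2 fold change of the 6 was 0.39, beside -0.01 over all genes tested.

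**Figure D4:**
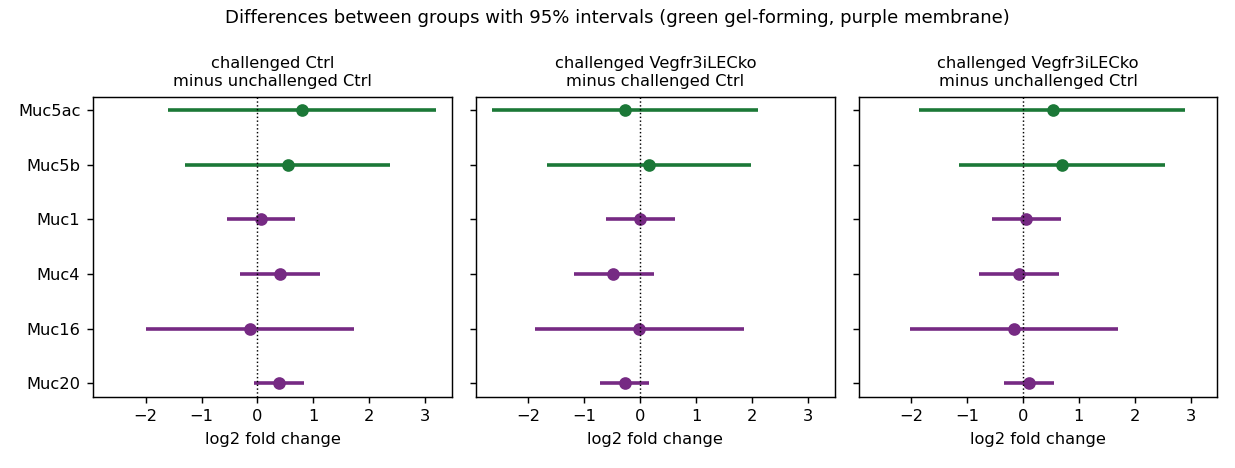
Log2 fold change of each mucin with its 95% interval (horizontal) in the 3 comparisons, from the edgeR fit on all 9 libraries. Every interval includes 0, and those of Muc5ac (-1.60 to 3.19 with challenge) are several times wider than those of Muc20 (-0.06 to 0.83).

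The second comparison set challenged Vegfr3iLECko against challenged Ctrl. Without an unchallenged Vegfr3iLECko group, it cannot tell an altered response to the allergen from a genotype difference present without challenge. It called 0 of 6 mucins and 0% of all genes, with 8.49% of genes (1325) and 0 of the 6 mucins at an unadjusted p under 0.05. DESeq2 called 231 genes and limma voom 0, with 0 of 6 mucins called by either. Muc4 averaged 2592 ± 1032 CPM in challenged Vegfr3iLECko and 3605 ± 650 CPM in challenged Ctrl pools, a log2 fold change of -0.48 (SE 0.32, 95% interval -1.19 to 0.24, adjusted p = 0.716). That value was -0.20 without challenged Vegfr3iLECko 3, the library lowest in Muc4. Muc20 averaged 294 ± 69.1 CPM in challenged Vegfr3iLECko and 357 ± 55.4 CPM in challenged Ctrl pools, at -0.28 (SE 0.20, adjusted p = 0.727), and at -0.11 without challenged Vegfr3iLECko 3. Muc1 averaged 385 ± 79.6 CPM in challenged Vegfr3iLECko and 385 ± 141 CPM in challenged Ctrl pools, with a 95% interval of -0.61 to 0.62 on the log2 scale. Its estimate of 0.00 was -0.25 without challenged Ctrl 1, -0.05 without challenged Vegfr3iLECko 1 and -0.12 without challenged Vegfr3iLECko 2.

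For the gel-forming mucins and Muc16 the intervals of the genotype comparison were wide. Muc5ac averaged 360 ± 411 CPM in challenged Vegfr3iLECko and 434 ± 425 CPM in challenged Ctrl pools, a log2 fold change of -0.27 (SE 1.07, 95% interval -2.65 to 2.11, adjusted p = 0.953). Leaving out a pool gave -1.81 without challenged Vegfr3iLECko 1 and 0.80 without challenged Ctrl 2. It also gave 0.16 without challenged Vegfr3iLECko 2 and 0.13 without challenged Vegfr3iLECko 3. Muc5b averaged 43.9 ± 34.0 CPM in challenged Vegfr3iLECko and 39.5 ± 40.8 CPM in challenged Ctrl pools, at 0.15 (SE 0.82, adjusted p = 0.965). It was -0.68 without challenged Vegfr3iLECko 1, -0.30 without challenged Ctrl 3 and -0.12 without challenged Ctrl 1. Muc16 averaged 4.48 ± 3.04 CPM in challenged Vegfr3iLECko and 4.55 ± 3.36 CPM in challenged Ctrl pools, at -0.02 (SE 0.84, adjusted p = 0.997). It was 0.08 without challenged Ctrl 1, 0.57 without challenged Ctrl 2, 0.26 without challenged Vegfr3iLECko 2 and 0.22 without challenged Vegfr3iLECko 3. The median over the 6 was -0.14, beside 0.00 over all genes.

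The third comparison set challenged Vegfr3iLECko against unchallenged Ctrl and shares pools with each of the others. It called 0 of 6 mucins and 0% of all genes, with 2.90% of genes (452) and 0 of the 6 mucins at an unadjusted p under 0.05. DESeq2 called 14 genes, none of them a mucin of the 6, and limma voom 0. The log2 fold changes were 0.53 (SE 1.07) for Muc5ac and 0.70 (SE 0.82) for Muc5b among the gel-forming mucins. For the membrane mucins they were 0.06 (SE 0.28) for Muc1, -0.07 (SE 0.32) for Muc4, -0.16 (SE 0.83) for Muc16 and 0.11 (SE 0.20) for Muc20. The adjusted p was 0.999 for each of the 6. Without challenged Vegfr3iLECko 1 the sign turned for Muc5ac (-1.02), Muc5b (-0.13) and Muc20 (-0.06). Without unchallenged Ctrl 1 it turned for Muc1 (-0.03), Muc4 (0.09) and Muc16 (1.0). Without challenged Vegfr3iLECko 2 it turned for Muc1 (-0.05) and Muc16 (0.13), and without challenged Vegfr3iLECko 3 for Muc4 (0.21) and Muc16 (0.08).

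Of 8 other membrane mucins listed, 4 were in the table and 3 were tested, and 0 of 3 passed in any comparison. At an unadjusted p under 0.05 there were 2 of 3 with challenge and 2 of 3 with genotype, in both cases Muc21 and Muc15, against 12.4% and 8.49% of all genes. Muc21, a membrane mucin of squamous epithelia, was at 503, 420 and 232 CPM in challenged Vegfr3iLECko pools 1 to 3, against 585, 646 and 555 CPM in challenged Ctrl and 376, 407 and 265 CPM in unchallenged Ctrl pools 1 to 3. Challenged Ctrl pools lay above all pools of both other groups. Without regard to direction, 15.7% of all genes did not overlap with challenge and 12.9% with genotype. The log2 fold change was 0.77 (SE 0.28, adjusted p = 0.270) for challenged Ctrl against unchallenged Ctrl and -0.63 (SE 0.28, adjusted p = 0.578) for challenged Vegfr3iLECko against challenged Ctrl. Both comparisons use the challenged Ctrl pools, so their signs are not independent. Muc15 was likewise at 22.8, 19.6 and 24.9 CPM in challenged Vegfr3iLECko pools 1 to 3, against 34.4, 32.7 and 36.3 CPM in challenged Ctrl and 29.8, 21.4 and 25.0 CPM in unchallenged Ctrl pools 1 to 3. With challenge Muc15 was at a log2 fold change of 0.44 (SE 0.17, adjusted p = 0.316). Between challenged Vegfr3iLECko and challenged Ctrl it was at -0.62 (SE 0.17, adjusted p = 0.373). Muc13, known from the gut, averaged 10.9 CPM in challenged Vegfr3iLECko, 12.0 CPM in challenged Ctrl and 7.77 CPM in unchallenged Ctrl pools.

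Muc2, the gel-forming mucin of the intestine, was too low to be tested. It had 24, 4 and 4 reads in challenged Vegfr3iLECko pools 1 to 3, against 8, 7 and 2 reads in challenged Ctrl and 26, 8 and 1 reads in unchallenged Ctrl pools 1 to 3. Its highest libraries, challenged Vegfr3iLECko 1 and unchallenged Ctrl 1, were also high in Muc5ac, but challenged Ctrl 2, the highest in Muc5ac, had 7 reads.

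Genes that build, pack and release mucins showed no called member either, in lists of mucin biology drawn up by function. Of the goblet cell transcription factors 5 were tested and 0 of 5 passed in any comparison, with a median log2 fold change of 0.61 with challenge beside -0.01 over all genes. Unadjusted p was under 0.05 for 0, 1 and 0 of the 5. Spdef, which goblet cells of the mouse conjunctiva need to form, was at 10.1, 3.42 and 7.09 CPM in challenged Vegfr3iLECko pools 1 to 3, against 8.78, 12.4 and 2.57 CPM in challenged Ctrl and 7.33, 1.26 and 5.35 CPM in unchallenged Ctrl pools 1 to 3. It had its highest values in the libraries that were highest in Muc5ac, challenged Ctrl 2 and challenged Vegfr3iLECko 1, and its difference with challenge was 0.78 (SE 0.69, adjusted p = 0.761). Klf4, a factor that also acts throughout surface epithelium, averaged 517 ± 173 CPM in challenged Vegfr3iLECko, 504 ± 122 CPM in challenged Ctrl and 363 ± 126 CPM in unchallenged Ctrl pools. Foxa1, a forkhead factor, averaged 34.8 ± 5.87, 37.7 ± 3.74 and 29.5 ± 5.09 CPM in the same groups. In challenged Ctrl 2 and challenged Vegfr3iLECko 1, Klf4 was at 405 and 323 CPM, each the lowest of its group. Foxa1 was at 38.2 and 29.0 CPM in those pools, so Klf4 and Foxa1 did not follow Muc5ac as Spdef did. Spdef was named after its values were seen.

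O-glycans are started by Galnt enzymes, and of 15 tested 0 passed in any comparison (1, 2 and 0 at an unadjusted p under 0.05). Galnt3 and Galnt18, the most abundant, averaged 161 ± 10.6 and 237 ± 46.1 CPM in challenged Vegfr3iLECko, 186 ± 33.7 and 197 ± 56.6 CPM in challenged Ctrl, and 157 ± 36.2 and 216 ± 85.8 CPM in unchallenged Ctrl pools. Of 20 tested genes that extend and cap the chains 0 passed. At an unadjusted p under 0.05 there were 5 of 20 with challenge and 5 of 20 with genotype, against 12.4% and 8.49% of all genes. In the third comparison there were 2 of 20, against 2.90%. The most abundant were St6galnac1 and B4galt1. St6galnac1, a sialyltransferase, averaged 335 ± 33.6 CPM in challenged Vegfr3iLECko, 316 ± 51.0 CPM in challenged Ctrl and 312 ± 58.2 CPM in unchallenged Ctrl pools. B4galt1, a galactosyltransferase, averaged 219 ± 23.5, 234 ± 11.9 and 220 ± 38.0 CPM in the same groups. B3gnt7, which adds N-acetylglucosamine to sulfated chains, came nearest the threshold. It was at 28.8, 46.2 and 29.2 CPM in challenged Vegfr3iLECko pools 1 to 3, against 64.8, 48.8 and 68.4 CPM in challenged Ctrl and 24.1, 20.8 and 21.2 CPM in unchallenged Ctrl pools 1 to 3. No 2 of these groups overlapped, as for 15.7% of all genes with challenge, 12.9% with genotype and 6.59% between challenged Vegfr3iLECko and unchallenged Ctrl. With challenge it was at 1.46 on the log2 scale (SE 0.22, adjusted p = 0.0676). Against challenged Ctrl, challenged Vegfr3iLECko was at -0.80 (SE 0.22, adjusted p = 0.364). B3gnt7 was named after its values were seen.

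Of 17 tested genes for folding, packaging and release 0 passed in any comparison (2, 1 and 1 at an unadjusted p under 0.05). Rab3d, a small GTPase of secretory granules, averaged 440 ± 118 CPM in challenged Vegfr3iLECko, 407 ± 82.1 CPM in challenged Ctrl and 406 ± 133 CPM in unchallenged Ctrl pools. Marcks, a kinase substrate with a part in airway mucin release, averaged 207 ± 16.8, 256 ± 28.6 and 215 ± 37.2 CPM in the same groups. Of 13 tested partners and sheddases of membrane mucins 0 passed (0, 1 and 0 at an unadjusted p under 0.05). Lgals3, a galectin that crosslinks membrane mucins at the eye surface, averaged 692 ± 196, 597 ± 138 and 539 ± 131 CPM, and Ctnnb1, a binding partner of the Muc1 tail, 704 ± 56.8, 761 ± 8.04 and 733 ± 24.1 CPM. Of 8 tested genes for mucus hydration 0 passed (3, 3 and 2 at an unadjusted p under 0.05). Slc12a2, a chloride cotransporter, averaged 367 ± 11.1, 443 ± 29.4 and 406 ± 91.3 CPM, and Scnn1a, a sodium channel subunit, 56.8 ± 24.3, 28.3 ± 4.20 and 28.1 ± 3.73 CPM. The difference of Scnn1a between challenged Vegfr3iLECko and challenged Ctrl was 1.01 (SE 0.28, adjusted p = 0.376), without overlap of the groups, like 12.9% of all genes.

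The genes most like each mucin over the 9 libraries were found by Pearson correlation of log2 CPM with every other tested gene and are given as a description. For Muc5ac they were Ano7 (r = 0.990), Reg3g (0.953) and Itln1 (0.950), and the same 3 led the list of Muc16, at 0.935, 0.973 and 0.946. Reg3g is an antibacterial lectin and Itln1 a sugar-binding lectin, both well known from the mouse intestine. Reg3g was at 16.4, 0.708 and 2.06 CPM in challenged Vegfr3iLECko pools 1 to 3, against 17.3, 19.5 and 0.171 CPM in challenged Ctrl and 34.7, 0.651 and 2.15 CPM in unchallenged Ctrl pools 1 to 3. Its 4 highest libraries were the 4 high in Muc5ac. Ano7 and Itln1 were low, at 1.33 and 0.694 CPM on average. For Muc5b the most alike were Ern2 (r = 0.945), a stress sensor of mucin-secreting cells, Gp2 (0.943), an apical glycoprotein of pancreas and intestinal M cells, and Foxa3 (0.928), a forkhead factor of goblet cells. Gp2 was the most abundant of these, at 227 CPM on average. The steadier mucins led to other genes, namely Smim24, Tmem248 and Folr2 for Muc1 (r = 0.926 to 0.944). For Muc4 they were Ppt1, the histamine receptor Hrh1 and the myeloid integrin Itgam (0.959 to 0.962), and for Muc20 they were Arrb2, Septin6 and the mast cell protease Cma1 (0.936 to 0.952). None of these genes was called in any comparison.

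**Figure D5:**
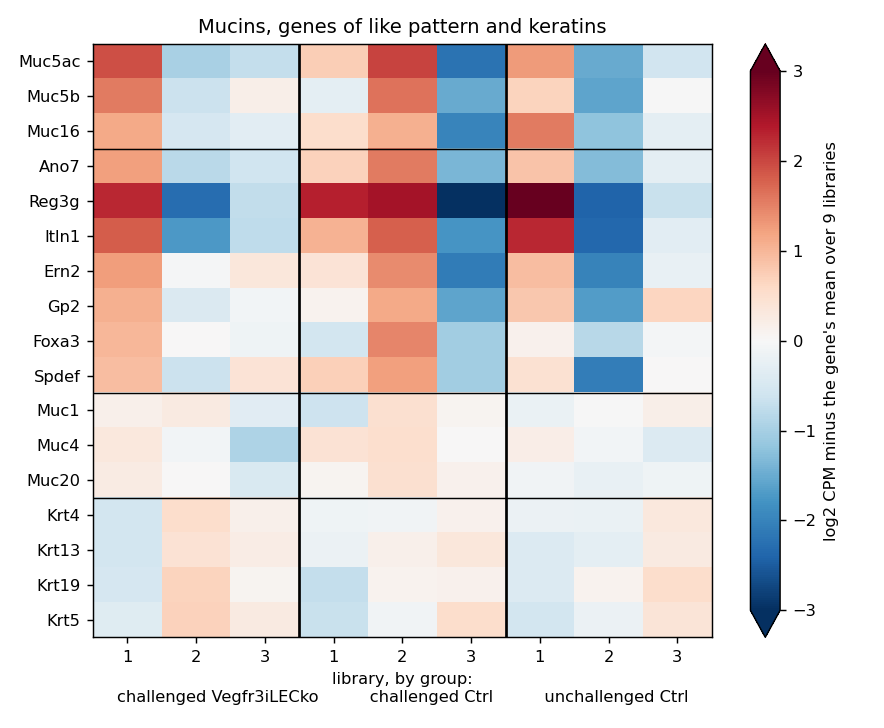
Log2 CPM of each gene minus its mean over the 9 libraries (colour), with libraries in columns by group and genes in rows: Muc5ac, Muc5b and Muc16, genes of like pattern, the steadier mucins and 4 keratins. Muc5ac and Muc16 are above their means in challenged Vegfr3iLECko 1, challenged Ctrl 1 and 2 and unchallenged Ctrl 1, while Muc5b and Foxa3 are below theirs in challenged Ctrl 1.

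Markers of other tissues also differed between these pools, and their part in the mucin pattern was not tested. The summed level of the conjunctival epithelium markers was 17611, 34932 and 26346 CPM in challenged Vegfr3iLECko pools 1 to 3, against 17454, 22836 and 30553 CPM in challenged Ctrl and 17103, 20729 and 29156 CPM in unchallenged Ctrl pools 1 to 3. The pool lowest in these markers was number 1 in every group, and each such pool was high in Muc5ac. Low markers and high Muc5ac did not always go together. Challenged Ctrl 2, the highest in Muc5ac, had 22836 CPM of these markers, above challenged Ctrl 1. Unchallenged Ctrl 2, low in Muc5ac, had 20729 CPM. Krt5 alone held 6279 to 16101 CPM of the sum. The 7 skeletal muscle markers, all listed and none at 0, summed to 1348 to 1656 CPM in challenged Vegfr3iLECko, 213 to 588 CPM in challenged Ctrl and 965 to 3248 CPM in unchallenged Ctrl pools. With their mean as a covariate the log2 fold change of Muc5ac was 0.05 (SE 1.82) with challenge and 0.73 (SE 2.16) with genotype. That mean was 4.68 to 6.08 log2 CPM in challenged Ctrl pools. It was 6.73 to 8.76 in unchallenged Ctrl and 7.49 to 7.76 in challenged Vegfr3iLECko pools. The muscle covariate thus cannot be told apart from either comparison. With the mean of 8 genes of epithelia at large as a covariate it was 1.35 (SE 0.88) and -0.53 (SE 0.86).

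The 6 meibomian gland markers summed to 1361 CPM in challenged Vegfr3iLECko 1 and to 143 to 269 CPM in the other libraries, with Elovl3 among those at 0 in some pools. The 3 corneal markers summed to 1582 to 3574 CPM in challenged Vegfr3iLECko, 1045 to 1803 CPM in challenged Ctrl and 1448 to 3725 CPM in unchallenged Ctrl pools, nearly all of it from Aldh3a1. Slurp1 was at 0 in some pools. The 3 listed lacrimal acinar markers summed to at most 11 CPM and the 3 listed epidermis markers to at most 20.1 CPM in any library. The 6 T cell markers summed to 20.4 to 30 CPM in challenged Vegfr3iLECko, 74.2 to 136 CPM in challenged Ctrl and 9.73 to 16.6 CPM in unchallenged Ctrl pools, and 3 of the 6 rose with challenge, against 0.0640% of all genes. It was the only list with a called member. No gene of the table was called with the muscle covariate, or without unchallenged Ctrl 2 or unchallenged Ctrl 3, so these calls are lost there. The muscle covariate itself parted challenged Ctrl from unchallenged Ctrl pools. Without challenged Ctrl 3, 1 gene was called. The 3 listed eosinophil markers summed to 350 to 933, 802 to 1905 and 323 to 574 CPM, in the same order of groups. Nearly all of it came from Alox15, at 340 to 928, 787 to 1899 and 319 to 573 CPM. Ccr3 reached at most 15.7 CPM and Siglecf 9.59 CPM in any library. The 5 adipocyte markers summed to 7.09 to 18.6, 1.31 to 4.95 and 4.36 to 50.5 CPM, in that order of groups too.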

How the data were processed

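The deposited table held raw counts, whole numbers of reads per gene symbol made by the authors, with 20603 genes and 9 libraries. HISAT2, Bowtie2, DESeq2 and the build mm39 are named in the submitters' processing notes. The sources used here do not give their versions, the counting program, the annotation or the strand of the libraries. Genes were filtered with filterByExpr, which left 15613, and fitted in a single edgeR quasi-likelihood model over all 9 libraries and 3 groups with TMM scaling, so that spread is estimated over all groups (biological coefficient of variation 31.7%). P-values were adjusted by Benjamini-Hochberg over all genes tested, with calls at 0.05, two-sided. Tools were R 4.3.3, edgeR 4.0.16, limma 3.58.1 and DESeq2 1.42.0. Log2 CPM used a prior count of 2. Kilobases are the union of exons in GENCODE vM21 (GRCm38), an annotation of another build than that of the counts. Promoter coordinates are those of RefSeq on GRCm38.p6, and no other coordinates are given.

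The members and the 20 lists (173 entries) were chosen with earlier results of these data known. All 6 members are named, with every tested member of the other mucin lists, the 2 most abundant or up to 4 called members of each further list, and the 3 genes most like each member. Intervals come from the edgeR fit and carry the spread between pools. Floors rest on read counts, and reads that carry no molecular identifier can be copies of a molecule. No library was a copy of another. To see whether replicate numbers in the titles pair libraries, each library's deviation from its group mean was correlated with that of its namesake in another group. Between challenged Ctrl and unchallenged Ctrl the correlations were 0.458, 0.245 and 0.488, all over 0.1, and these groups count as paired. That pairing comes from the data, not the labels. Alternatives were other scaling, no count filter, DESeq2, limma voom, leaving out each library, the 2 groups of a comparison alone, a replicate block and 2 marker covariates. A block within challenged Ctrl and unchallenged Ctrl alone was added after seeing the data.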

Additional observations from a re-analysis of the deposited data

How the results depend on the processing

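No mucin of the 6 was called in any of the 3 comparisons under any alternative run, and 269 of 312 alternative values of their log2 fold changes kept their direction. The count over all genes moved more. For challenged Ctrl against unchallenged Ctrl it was 10, and it was 20 with no count filter, 753 with DESeq2, 6 with limma voom, 16 with the epithelium covariate, 0 with the muscle covariate and 1 in a fit of these groups alone. With replicate number as a block it was 267, and 476 with the block in these 2 groups alone, added after seeing the data; the block changed no call of a mucin. Leaving out 1 library gave 0 to 121 genes: 121 without unchallenged Ctrl 1, 35 without challenged Ctrl 2, 6 without challenged Vegfr3iLECko 1, 5 without challenged Vegfr3iLECko 3, 1 without challenged Ctrl 3 and 0 without unchallenged Ctrl 2 or 3. For challenged Vegfr3iLECko against challenged Ctrl the count of 0 was 231 with DESeq2 and 22 with the block. For challenged Vegfr3iLECko against unchallenged Ctrl the count of 0 was 14 with DESeq2. Between challenged Vegfr3iLECko and challenged Ctrl same-numbered libraries 1 to 3 correlated at 0.339, -0.147 and 0.334. Between challenged Vegfr3iLECko and unchallenged Ctrl they correlated at 0.318, -0.0889 and 0.334. Challenged Vegfr3iLECko 1 and 3 thus deviated with their namesakes and challenged Vegfr3iLECko 2 did not, so that group was not counted as paired. Not every library correlated best with its own.

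Log2 fold changes that turned round were those of mucins near 0 or with wide spread, and the cause was not tested. With challenge, Muc1 was -0.01 with limma voom and -0.00215 with the block in 2 groups. Muc16 was 0.02 with the block and 0.37 with the epithelium covariate, and Muc5b was -0.12 with the muscle covariate. For challenged Vegfr3iLECko against challenged Ctrl, Muc1 was -0.00140 with DESeq2's size factors and -0.00139 with DESeq2. Muc16 was 0.27 with limma voom and 0.99 with the muscle covariate, and Muc5ac was 0.73 with the muscle covariate. For challenged Vegfr3iLECko against unchallenged Ctrl, Muc16 was 0.26 with limma voom, 0.36 with the epithelium covariate and 0.06 with the muscle covariate, and Muc4 was 0.16 with the epithelium covariate. Leaving out 1 library with challenge gave ranges of -0.28 to 1.97 for Muc5ac, -0.75 to 1.10 for Muc5b, -0.23 to 0.31 for Muc1 and -0.72 to 1.02 for Muc16. For challenged Vegfr3iLECko against challenged Ctrl they were -1.81 to 0.80 for Muc5ac, -0.68 to 1.44 for Muc5b, -0.25 to 0.28 for Muc1 and -0.74 to 0.57 for Muc16. For challenged Vegfr3iLECko against unchallenged Ctrl they were -1.02 to 1.70 for Muc5ac, -0.13 to 1.25 for Muc5b, -0.05 to 0.23 for Muc1, -0.37 to 0.21 for Muc4, -0.88 to 1.0 for Muc16 and -0.06 to 0.28 for Muc20. Muc4 (0.27 to 0.56) and Muc20 (0.24 to 0.46) kept their direction with challenge under every library left out, and with genotype they stayed at -0.77 to -0.20 and -0.44 to -0.11. The ratio of gel-forming to membrane mucins in a library cannot change with the scaling of libraries, which cancels from it. It does rest on the exon lengths used per kilobase, which come from another build. Depth was no limit for Muc5ac, with at least 821 reads a library, but Muc16 rested on as few as 16.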
